A study of Mus musculus with 2 samples.

Results

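The cytosolic ribosomal protein genes encode the proteins of the ribosome that translates nuclear messages. They were chosen by name: symbols beginning Rpl or Rps followed by a digit, with Rpsa, Rplp0, Rplp1 and Rplp2, and without the S6 kinases or symbols that mark a pseudogene with -ps. Of 47730 features counted, 92 had such a symbol, and the 90 with at least 100 UMIs over both libraries are the members. A UMI (unique molecular identifier) is a tag that marks 1 captured RNA molecule. The members are 37 genes named for the small 40S subunit, 50 named for the large 60S subunit and the 3 genes of the P-stalk, the arm of the large subunit that binds elongation factors. The symbols left out by the minimum were Rpl10l, with 3 UMIs, and Rps12l1, with 4, and the members just above it were Rpl39l, with 192, and Rps3a2, with 236. In the gene annotation 85 members are protein-coding. Rpl37rt and Rps4l are transcribed processed pseudogenes, and Rps3a3, Rpl6l and Rps3a2 are processed pseudogenes. Rps19bp1, which encodes a binding partner of Rps19, carries a matching name although its product is not a ribosomal subunit.

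The cells were live CD45+ leukocytes that flow cytometry had sorted out of dissociated tumours from C57BL6\J mice, and their RNA was counted by droplet-based 3′ sequencing (10x Genomics Chromium). Every mouse had been ovariectomised, which removes the main source of estrogen, and the treatment was placebo in one group and E2 (estradiol) in the other. Each group is 1 library, so a difference between groups is a difference between these 2 libraries, with no estimate of the spread between mice and no test. The labels used here state neither the tumour type nor the dose and duration of E2, and they give no age and no number of animals pooled.

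A ribosome holds 1 copy of nearly every ribosomal protein, and its RNA messages are among the most abundant in animal cells. The small subunit reads the message, and the large subunit joins the amino acids. Most of these messages begin with a terminal oligopyrimidine (TOP) tract, a run of C and U bases at the very 5′ end through which the growth kinase mTORC1 controls their translation. Resting lymphocytes are known to hold many ribosomal protein messages that they translate slowly, while neutrophils leave the bone marrow as mature cells with little RNA.

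The placebo matrix has 3505 barcodes with 24545595 UMIs in all, and the E2 matrix 5791 barcodes with 52628133 UMIs. After filtering, 3393 and 5499 barcodes were kept, with medians of 5090 and 7888 UMIs, and 95 barcode sequences occur in both libraries. A cell joined a class when it had at least 3 UMIs in at least 2 marker genes of that class and at least 2 times the UMIs of every other list. By this rule 85.0% of placebo and 87.5% of E2 cells had a class. Classes are called X-like because the name rests on markers, and 12 classes, each with 20 or more cells from both libraries, are described. No class had a marker of another class among its 10 leading genes, which the rule itself favours by limiting the UMIs of other lists. The sorted surface protein CD45 is encoded by Ptprc, which had a UMI in 62.0 to 100% of the cells of each immune class and in 0 and 3.95% of fibroblast-like cells, a class outside the sort.

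Because ribosomal protein messages are known for their TOP tracts, the start sites were searched for a run of at least 5 pyrimidines (C or T in DNA) that begins with C within 10 bases of the annotated start, on the sense strand. Start sites came from RefSeq (GRCm38.p6), which matched 66 of the 90 members. Such a run was present in 39 of the 66 (59.1%), against 34.4% of 27025 genes in the table and 37.2% of 446 matched non-members with at least 200 CPM, a filter described below. The same search on the other strand found 24.2% of the members and 38.5% of all genes. The windows of 6 members that recur below are shown from 15 bases before the start to 14 after it, with the run in capitals: the pair least reduced in neutrophil-like cells among the 80 members with at least 10000 UMIs (Rps9 and Rps27), the most reduced of those 80 (Rpl10a), the one of them whose share of member UMIs lay furthest above its own mean over classes in mature dendritic-like cells (Rps27l), an abundant small-subunit member (Rps24) and a P-stalk member (Rplp2).
Rps9: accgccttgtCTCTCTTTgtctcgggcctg
Rps27: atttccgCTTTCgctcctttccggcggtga
Rpl10a: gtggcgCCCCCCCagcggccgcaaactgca
Rps27l: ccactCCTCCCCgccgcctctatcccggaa
Rps24: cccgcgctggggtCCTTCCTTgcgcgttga
Rplp2: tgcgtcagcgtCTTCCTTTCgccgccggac
These lie at chr7:3704026-3704055 (plus strand), chr3:90213634-90213663 (minus), chr17:28328456-28328485 (plus), chr9:66946071-66946100 (plus), chr14:24490663-24490692 (plus) and chr7:141447636-141447665 (plus). The longest of the 6 runs, in Rplp2, spans 9 bases and the shortest, in Rps27, spans 5. A match describes the letters near an annotated start and is not evidence of where transcription began. Rplp0, Rps28, Rpsa and Rps4x, described below, had none in this window, and of these Rpsa and Rps4x were among the members most reduced in neutrophil-like cells, as was Rpl10a, which has one.

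The members together made up 18.02% of placebo UMIs and 19.4% of E2 UMIs. Levels are given as CPM, a gene's UMIs per 1000000 UMIs of the cells summed, and since the 3′ method counts 1 tag per molecule they were not divided by gene length. The most abundant members were Rps29, a zinc-binding protein of the small subunit, at 7489 CPM in the placebo and 8584 CPM in the E2 library, and Rpl41, the smallest ribosomal protein, at 6354 and 6627 CPM. Rpl37a, Rps24, Rps27 and Rpl39 came next, with means over the libraries from 3946 to 5487 CPM. The 80 members with at least 10000 UMIs held 99.9% of all member UMIs and spanned 20.7-fold between the most and the least abundant. The 10 others were rare: the lowest 6 by CPM, Rpl39l, Rpl6l, Rps3a2, Rps3a3, Rpl3l and Rps4l, had means of 2.24 to 17.0 CPM. Although a ribosome holds nearly equal numbers of its proteins, their counted messages were far from equal. For 26 of the 80 abundant members, more than 50% of the 90-base stretches in the last 300 bases of the transcript also occur in another gene, and the labels used here do not say how such reads were counted. The median level of those 26 was 1815 CPM, against 2547 CPM for the other 54. Over all 80, however, the rank correlation of level with the percentage of shared stretches was only -0.091.

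Many ribosomal protein genes host small nucleolar RNAs, which guide the modification of ribosomal RNA, in their introns. Of the 90 members, 24 overlap at least 1 annotated small nucleolar RNA gene, and 50 overlap some other counted feature, 34 of them on the same strand. The rare member Rpl3l (chromosome 17, 24727820 to 24736143, plus strand) overlaps none but ends 499 bases before the start of Msrb1 on the same strand.

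The ribosomal protein share of a cell's UMIs was highest in NK-like cells and lowest in neutrophil-like cells. NK-like cells, cytotoxic innate lymphocytes, had a median share of 26% (quartiles over cells 20.6 to 31.8%) in the placebo library and, with E2, 29.6% (24.1 to 33.2%). Neutrophil-like cells had 2.30% (1.55 to 3.22%) and 2.70% (1.85 to 3.79%), and their quartiles overlapped those of no other class. Granulocyte-type cells as a whole lay low: mast-like cells had 9.90 and 11.4%, and basophil-like cells 8.70 and 8.61%. The fibroblast-like cells outside the sort had 12.9 and 13.8%.

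The antigen-presenting and lymphoid classes lay between these ends, and most overlapped. Medians in the placebo and the E2 library were 21.7 and 25.01% in type 1 conventional dendritic-like cells (cDC1-like) and 19.8 and 21.8% in type 2 conventional dendritic-like cells (cDC2-like). Plasmacytoid dendritic-like cells (pDC-like) had 19.8 and 22.1%, T-like cells 19.4 and 20.4%, and B-like cells 18.8 and 26.2%. Monocyte/macrophage-like cells had 16.5 and 17.97%, and CCR7+ mature dendritic-like cells 15.9 and 19.95%. From cDC1-like to mature dendritic-like cells, with B-like cells set aside, neighbours in this order had overlapping quartiles in both libraries, so their order is not firm. After each cell was thinned to 2000 UMIs, the NK-like medians were 26.5 and 29.3% and the neutrophil-like medians 2.50 and 2.70%, with 71 placebo and 36 E2 neutrophil-like cells too shallow to enter. Within a class the rank correlation of the share with a cell's depth ran from -0.39 (532 neutrophil-like cells of the E2 library) to 0.88 (25 basophil-like cells of the E2 library).

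**Figure D1:**
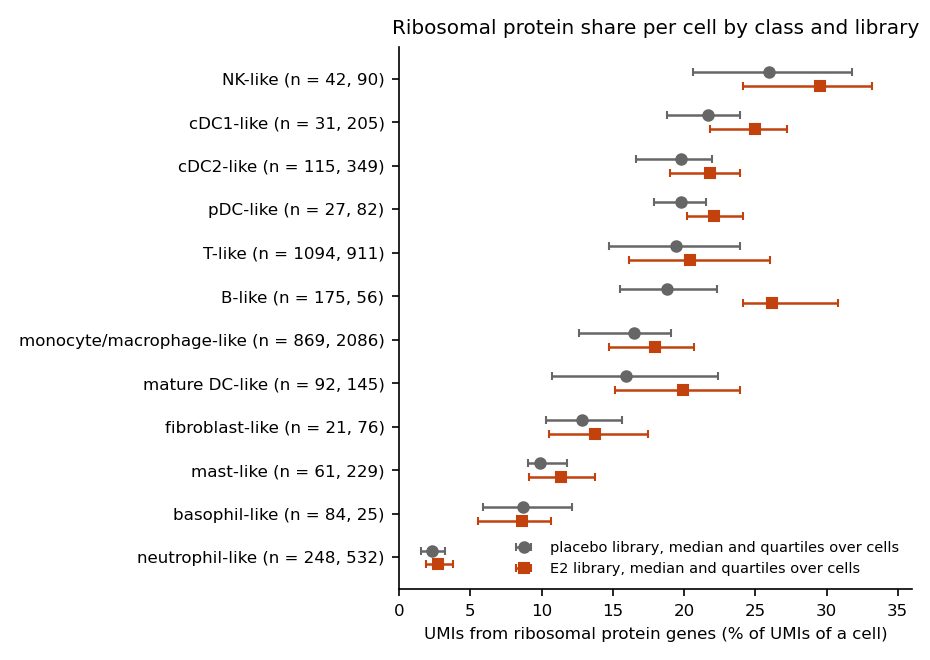
Share of each cell's UMIs that came from ribosomal protein genes (x axis, %) in 12 classes, with the number of placebo and E2 cells beside each name; points are medians and bars span the quartiles over cells. Neutrophil-like cells lie at 2.30 and 2.70%, below all other classes, and B-like cells are the class whose quartiles do not overlap between the libraries.

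The balance between subunits also differed by class. Genes named for the small subunit held 42.1 to 42.4% of member UMIs in mast-like cells, 45.7 to 49.2% in the lymphoid classes (T, NK and B), and 50.03 and 50.15% in neutrophil-like cells, with both libraries of each class close together. The neutrophil-like values lean on single genes described below. Rps9 alone held 7.04 and 7.68% of member UMIs there, against 1.53 and 1.47% in T-like cells, and Rps27 was also raised. The balance without these genes was not computed. The P-stalk genes Rplp0, Rplp1 and Rplp2 held 5.80 and 5.81% of member UMIs in basophil-like cells and 5.17 and 5.18% in mast-like cells, against 3.22 and 3.13% in B-like cells. A message share is not a count of subunits.

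Within T-like cells the share was lowest in cells with a UMI of Foxp3, the transcription factor of regulatory T cells. Their median was 15.3% (quartiles 12.2 to 18.6%, 432 cells) in the placebo library and 17.3% (14.0 to 20.5%, 370 cells) in the E2 library. Cells with Cd4 but neither Foxp3 nor Cd8 had 22.4% (19.9 to 25.9%, 215 cells) and 23.8% (19.0 to 27.6%, 133 cells), and cells with Cd8a or Cd8b1 alone 23.7% (187 cells) and 24.7% (113 cells). Gamma-delta T-like cells had 19.9 and 21.3%. Quartiles of the Foxp3 cells lay below those of the Cd8 cells in both libraries and below those of the Cd4 cells in the placebo library, and overlapped the Cd4 cells' in the E2 library. A missing UMI does not show that a gene was off. Cycling T-like cells, with at least 5 UMIs of division genes such as Mki67 and Top2a, had 19.3 and 20.3%, close to the 19.4 and 20.2% of cells with none, at a median depth of 11554 and 12976 UMIs against 4303 and 4058.5.

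Within monocyte/macrophage-like cells, those led by classical monocyte genes (Ly6c2, Plac8, Hp and Chil3) had 17.8% (quartiles 15.9 to 19.7%, 385 cells) in the placebo library and 18.5% (16.5 to 20.6%, 1001 cells) in the E2 library. Cells led by genes of resident macrophages (Folr2, Pf4, Cbr2, Ccl8, Fcrls and Gas6) had 11.9% (8.01 to 16.5%, 120 cells) and 16.2% (12.4 to 20.04%, 561 cells), at median depths of 7359 and 9520 UMIs. Cells led by Arg1, which encodes an enzyme that breaks down arginine, and the genes listed with it (Mmp12, Inhba, Cdh1 and Slc7a2) had 12.5% (112 cells) and 12.9% (48 cells). The monocyte cells thus had the highest medians of the 3 groups in both libraries, and the resident cells showed the widest gap between libraries. Among B-like cells the share was 17.9% (15.3 to 21.5%, 143 cells) and 26% (24.02 to 30.9%, 37 cells) in those with a UMI of Vpreb3, a gene of immature B cells. Those without had 23.3% (20.1 to 25.6%, 32 cells) and 26.6% (24.9 to 30.8%, 19 cells). Vpreb3 cells were 143 of the 175 B-like cells in the placebo library and 37 of 56 in the E2 library.

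**Figure D2:**
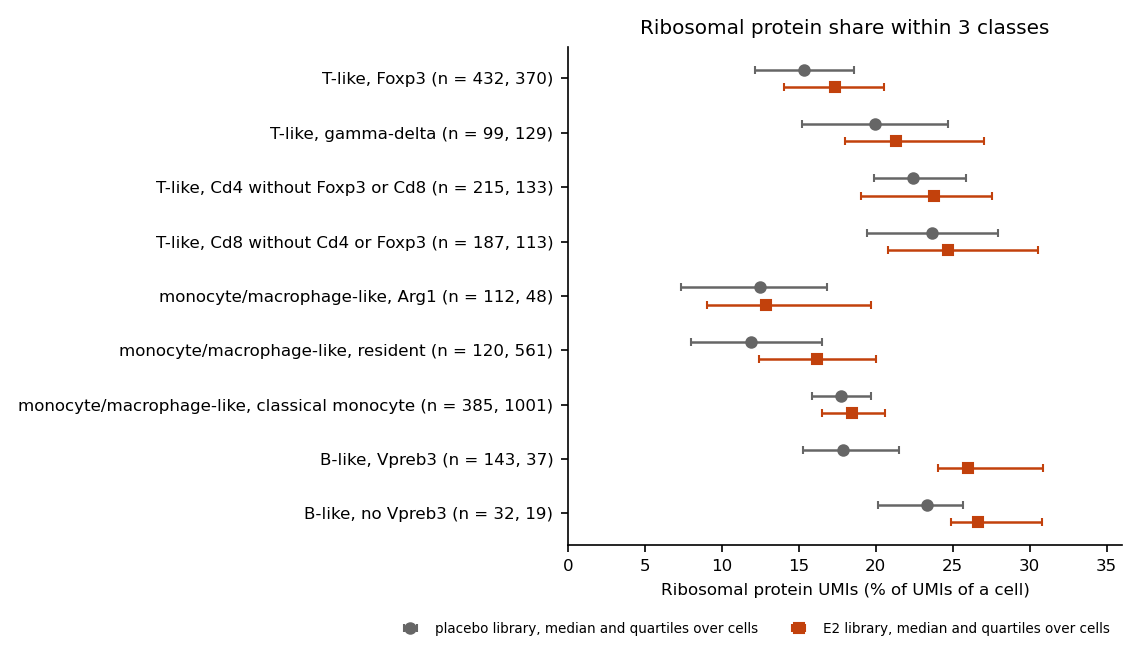
Share of each cell's UMIs from ribosomal protein genes (x axis, %) in groups of T-like, monocyte/macrophage-like and B-like cells; points are medians, bars span the quartiles over cells, and the numbers are placebo and E2 cells. Foxp3 cells lie at 15.3 and 17.3%, below the Cd4 and Cd8 cells, and B-like cells with Vpreb3 differ most between libraries, at 17.9 and 26%.

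The comparison of E2 with placebo asks how immune cells of a tumour differ between hosts with and without added estrogen. The ribosomal protein share was higher in the E2 library in 11 of 12 classes, by the medians and by the pooled UMIs of a class alike, and in 12 of 12 after thinning. The difference was small beside the spread of single cells: the quartiles overlapped in every class but B-like cells. In T-like cells the pooled share was 20.8% in the placebo and 22.9% in the E2 library, 1.10-fold higher (exact conditional-binomial 95% interval 1.10 to 1.11). Monocyte/macrophage-like cells had 16.7 and 18.4%, also 1.10-fold higher, and cDC1-like cells 21.2 and 24.5%, 1.15-fold higher (1.15 to 1.16). B-like cells stood out with 19.9 and 27.3%, 1.38-fold higher (1.36 to 1.39), on 175 and 56 cells. Basophil-like cells were the exception at 9.99 and 9.96%, a fold of 0.997 (0.975 to 1.02) whose interval includes equality. These intervals cover counting error only. The 12 classes come from the same 2 libraries, so the treatment, the mice and the handling or depth of a library cannot be told apart.

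In neutrophil-like cells the pooled share was 2.65% in the placebo and 2.88% in the E2 library, a log2 ratio of 0.12, and this value rests on the choice of cells. Among cells with 3000 to 10000 UMIs, 42 placebo and 287 E2 cells, the pooled log2 ratio was -0.011. The median per-cell shares of those cells were 1.86 and 2.14%, higher in the E2 library. The pooled log2 ratio was 0.42 with no doublet removal. With the 2 placebo and 4 E2 barcodes left in that had at least 5 UMIs of the osteoclast genes Ctsk and Acp5, it was 0.78. In cDC2-like cells the log2 ratio was 0.13, and 0.28 among cells with 3000 to 10000 UMIs (22 and 57 cells).

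Single members were compared in the 4 classes that had 100 or more cells from both libraries, as log2((CPM E2 + 10)/(CPM placebo + 10)), a scale that understates the change of low genes, over features with a mean of at least 50 CPM. In T-like cells 18 of 82 members were more than 1.2-fold higher in the E2 library and 4 more than 1.2-fold lower, against 9.45% of all features higher and 19.8% lower. In monocyte/macrophage-like cells 14 of 82 were higher and 5 lower, against 7.15 and 19.5% of all features. In cDC2-like cells 8 of 82 were higher and 6 lower, against 7.63 and 21.2%. In neutrophil-like cells 19 of 79 were higher and 11 lower, against 19.5 and 38.6%. The median log2 ratios of the members were 0.15, 0.15, 0.14 and 0.12 in the 4 classes, where those of all features tested were -0.075, -0.065, -0.063 and -0.13. With CPM taken over the UMIs of other genes only, 26 members were higher and 2 lower in T-like cells, and 13 higher and 6 lower in cDC2-like cells. No member passed 1.5-fold in T-like, monocyte/macrophage-like or cDC2-like cells. The neutrophil-like counts were 61 higher and 1 lower with no doublet removal.

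Rplp0, the core protein of the P-stalk, had the highest log2 ratio of the members in T-like, monocyte/macrophage-like and cDC2-like cells and the third highest in neutrophil-like cells. It was at 2945 CPM in the placebo and 4077 CPM in the E2 library in T-like cells, 1.38-fold higher (1.36 to 1.41). In monocyte/macrophage-like cells it was at 2510 and 3383 CPM, 1.35-fold higher (1.33 to 1.37). In cDC2-like cells it was at 2908 and 3792 CPM, 1.30-fold higher (1.26 to 1.35), and in neutrophil-like cells at 237 and 361 CPM, 1.52-fold higher (1.27 to 1.84). The other stalk genes did not share this: Rplp1 and Rplp2, its acidic partners, had log2 ratios of 0.07 and 0.05 in T-like cells and 0.10 and 0.01 in monocyte/macrophage-like cells.

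Of the small-subunit members, Rps2, a core protein near the entry of the message, was at 2443 and 3326 CPM in T-like cells, 1.36-fold higher (1.33 to 1.39), and at 1963 and 2473 CPM in monocyte/macrophage-like cells, 1.26-fold higher (1.24 to 1.28). Rps20, of the head of the small subunit, was at 2528 and 3305 CPM in monocyte/macrophage-like cells, 1.31-fold higher (1.29 to 1.33). Rps4x, the X-linked form of a small-subunit protein, had the highest ratio in neutrophil-like cells, 85.8 and 144 CPM, but on 51 placebo UMIs. Of the large-subunit members, Rpl3, which lines the peptide-joining centre, was at 1689 and 2242 CPM in T-like cells and 1215 and 1594 CPM in monocyte/macrophage-like cells, 1.33-fold (1.29 to 1.36) and 1.31-fold (1.28 to 1.34) higher. In neutrophil-like cells it was at 69.0 and 60.1 CPM, a fold of 0.871 (0.602 to 1.28). Rpl29, a small protein of the large subunit, was at 1080 and 1360 CPM in cDC2-like cells, 1.26-fold higher (1.196 to 1.33), and at 99.3 and 155 CPM in neutrophil-like cells.

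Log2 ratios below 0 were found in 17 of 82 members in T-like, 18 of 82 in monocyte/macrophage-like, 19 of 82 in cDC2-like and 31 of 79 in neutrophil-like cells. The share of all features below 0 was not computed. Their medians, -0.075, -0.065, -0.063 and -0.13 in the same order, were themselves below 0. Rpl23a, a large-subunit protein at the exit of the peptide tunnel, was the lowest member in each class. It was at 541 and 395 CPM in T-like cells, 1.37-fold lower (1.29 to 1.45), at 496 and 331 CPM in monocyte/macrophage-like cells, 1.5-fold lower (1.44 to 1.56), at 600 and 408 CPM in cDC2-like cells and at 85.8 and 47.2 CPM in neutrophil-like cells. Rps28, a small-subunit protein, was second lowest in each of them, at 3507 and 2711 CPM in T-like, 3552 and 2763 CPM in monocyte/macrophage-like, 3947 and 3039 CPM in cDC2-like and 389 and 240 CPM in neutrophil-like cells. Rpl5, which joins the large subunit as part of the 5S particle, was at 761 and 617 CPM in T-like cells and 540 and 428 CPM in monocyte/macrophage-like cells. Rps15 was at 604 and 480 CPM in monocyte/macrophage-like and 706 and 571 CPM in cDC2-like cells, Rpl13a at 1942 and 1594 CPM in T-like and 1206 and 971 CPM in cDC2-like cells, and Rpl27 at 1186 and 968 CPM and 1435 and 1125 CPM in monocyte/macrophage-like and cDC2-like cells. In neutrophil-like cells Rpl27 ran the other way, at 197 and 224 CPM. In neutrophil-like cells Rpl15 followed, at 92.6 and 64.6 CPM on 55 placebo UMIs. The 4 classes share the same 2 libraries, so their values are given side by side and not as repeats. Of these genes Rpl23a shares 75.8% of its 3′ stretches with other genes and Rpl27 80.1%, while Rps28 shares 1.90%, Rps15 7.11%, and Rpl5, Rpl13a and Rplp0 none.

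**Figure D3:**
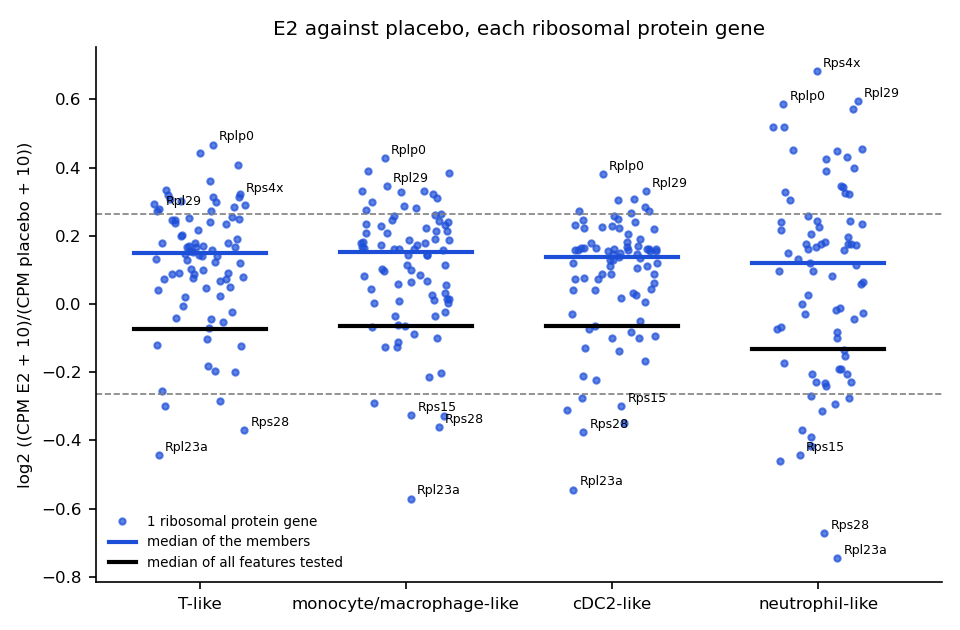
Log2 ratio of E2 over placebo (y axis) for each ribosomal protein gene tested in 4 classes; each point is 1 gene, blue lines are the medians of the members, black lines those of all features tested, and dashed lines mark 1.2-fold, with horizontal scatter only for legibility. The blue medians, 0.12 to 0.15, lie above the black ones in each class, while Rpl23a and Rps28 lie lowest.

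Members that departed from the rest across classes were found from the share each took of all member UMIs in a class, which removes the level of the whole group, over the 7 classes that had 50 or more cells from both. The 80 abundant members had a median range across classes of 0.77 (log2), and 16 of them ranged by less than 0.5 and 27 by more than 1. Neutrophil-like cells were the source of most of the wide ranges: 20 of 80 members lay within 0.2 of their mean over classes there, against 67 in monocyte/macrophage-like and 53 in T-like cells. The departures were alike in the 2 libraries, with Pearson correlations from 0.91 (B-like) to 0.96 (cDC2-like) over the 80 members, which share each library's cells. The 8 widest ranges belonged to Rpl3l, Rps4l, Rps27l, Rpl37rt, Rpl10a, Rpsa, Rps9 and Rps27rt, of which Rpl3l, Rps4l and Rpl37rt rest on as few as 0 to 2 UMIs in a class.

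In neutrophil-like cells Rps9 and Rps27, both proteins of the small subunit, took a far larger part of the group than elsewhere. Rps9 (chromosome 7, 3703993 to 3706897, plus strand) held 7.04% of member UMIs in the placebo and 7.68% in the E2 library there, on 1110 and 3937 UMIs. In the 6 other classes it held 1.47 to 2.38%, so neutrophil-like cells did not overlap with any of them. Rps27 (chromosome 3, 90212522 to 90213651, minus strand) held 7.80 and 6.71% in neutrophil-like cells, against 3.90 and 4.36% in B-like cells, the next highest, and 1.76 to 3.31% in the 5 other classes. Rps27a, made as a fusion of ubiquitin with a small-subunit protein, held 3.07 and 3.72%, against at most 2.22% elsewhere. Rps27 shares 100% and Rps27a 83.9% of its 3′ stretches with other genes, so their reads are hard to assign, while Rps9 shares none. The large-subunit member Rpl37 and the small-subunit member Rps25 were also highest there, with mean departures of 0.77 and 0.65.

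Set against monocyte/macrophage-like cells, the 80 abundant members were reduced in neutrophil-like cells by a median of 7.72-fold in the placebo and 7.53-fold in the E2 library, but by very unequal amounts. Rps27 was 1.82-fold lower (95% interval for counting error 1.72 to 1.93) in the placebo and 1.98-fold lower (1.91 to 2.05) in the E2 library. Rps9 was 2.13-fold (2.003 to 2.26) and 1.90-fold (1.84 to 1.97) lower, and these were the 2 of the 80 reduced by less than 3-fold in either library. At the other end Rpl10a, a large-subunit protein, was at 31.98 and 47.7 CPM in neutrophil-like and 1260 and 1553 CPM in monocyte/macrophage-like cells, 39.4-fold (25.2 to 65.5) and 32.5-fold (26.3 to 40.7) lower, on 19 and 85 neutrophil-like UMIs. Rpsa, a small-subunit protein also known as the laminin receptor precursor, was 17.7-fold (14.2 to 22.2) and 18.3-fold (16.3 to 20.7) lower. Rps4x, Rps18, Rps20, Rpl3, Rpl32 and Rpl36al were also more than 15-fold lower in both libraries. Of these most reduced members, Rpl10a shares 84.8%, Rpl3 72.0%, Rpl36al 50.7% and Rps18 22.3% of its 3′ stretches with other genes. Rpsa, Rps4x, Rps20 and Rpl32 share none. Fau, a small-subunit protein gene outside the naming rule, was 1.76-fold (1.68 to 1.85) and 1.69-fold (1.65 to 1.74) lower, at 2982 and 3445 CPM in neutrophil-like cells.

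Free RNA of other cells can add UMIs to cells with few of their own. The 9 monocyte/macrophage markers summed to 215 and 188 CPM in neutrophil-like cells, 4.11 and 2.50% of their level in monocyte/macrophage-like cells, with 2 of the 9, Fcgr1 among them, at 0 UMIs in the placebo library and F13a1 alone at 0 in the E2 library. These 9 genes are part of the gate, which selects for low counts of them in neutrophil-like and high counts in monocyte/macrophage-like cells. Their level is therefore not an unselected measure of free RNA. The member share in neutrophil-like cells was 15.9 and 15.6% of the monocyte/macrophage-like level. How much of the member UMIs in neutrophil-like cells was free RNA was not tested.

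Mature dendritic-like cells, which express the homing receptor gene Ccr7, were set apart by Rps27l, Rpsa and Rps19. Rps27l (chromosome 9, 66946086 to 66949516, plus strand), a close relative of Rps27 known as a p53 target, was at 973 and 1237 CPM there, against 510 and 542 CPM in cDC2-like, 254 and 311 CPM in T-like and 160 and 179 CPM in B-like cells. It is the only one of the 80 abundant members with a range over 2.6, at 2.93. Rpsa held 3.09 and 3.25% of member UMIs in mature dendritic-like cells, against 1.86 and 2.10% in T-like cells, the next highest, and 0.52 and 0.554% in neutrophil-like cells. Rps19, a small-subunit protein mutated in Diamond-Blackfan anaemia, had a mean departure of 0.86 there and -0.85 in mast-like cells. In mast-like cells the stalk gene Rplp1 was highest, with a mean departure of 0.84, and mean departures in B-like, neutrophil-like and mature dendritic-like cells lay between -0.38 and -0.35. Rpl12, which sits at the base of the stalk, was highest in the lymphoid T-like and B-like cells, with mean departures of 0.62 and 0.51. Its mean departure in neutrophil-like cells was -1.54.

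**Figure D4:**
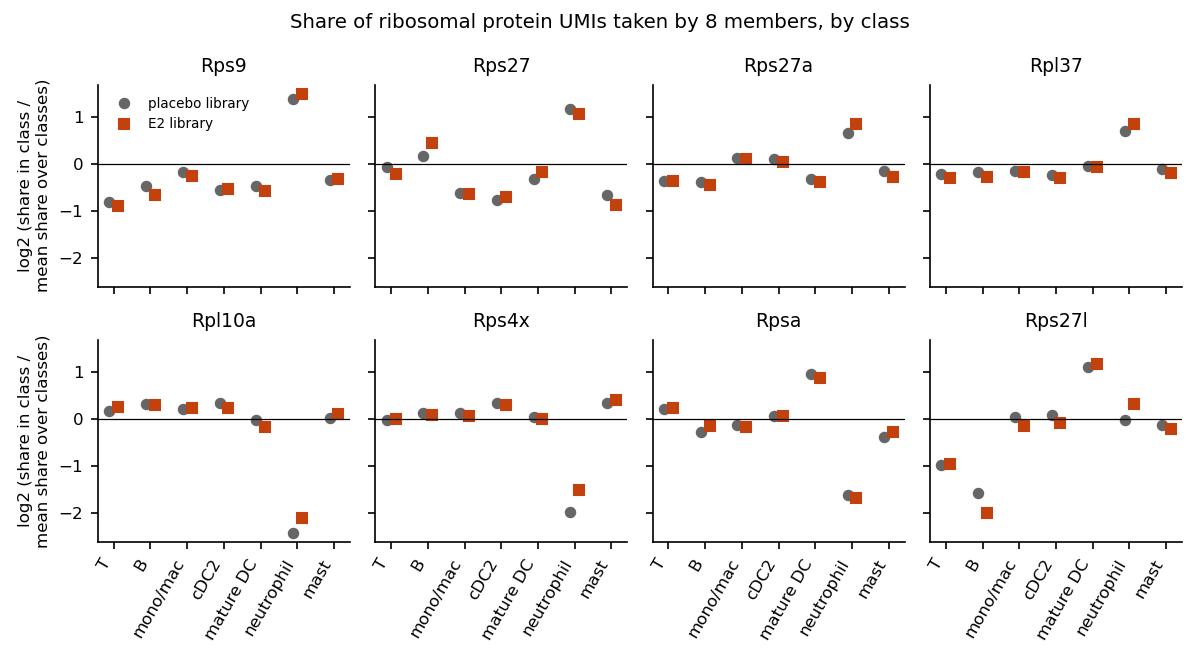
Log2 of the share of member UMIs that a gene took in a class over its mean share across 7 classes (y axis), for 8 ribosomal protein genes; circles are the placebo library and squares the E2 library. Rps9, Rps27, Rps27a and Rpl37 are highest and Rpl10a, Rps4x and Rpsa lowest in neutrophil-like cells, while Rps27l and Rpsa are highest in mature dendritic-like cells.

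Rpl3l, a relative of Rpl3 that is known from heart and skeletal muscle, had its highest level in neutrophil-like cells, at 42.1 and 32.6 CPM (25 and 58 UMIs), against 9.34 and 7.65 CPM (77 and 159 UMIs) in monocyte/macrophage-like cells and 1 and 0 UMIs in T-like cells. It held 37.9% (26.2 to 50.7%) and 35.2% (27.9 to 43.0%) of the UMIs of its pair with Rpl3 in neutrophil-like cells, where Rpl3 itself was at 69.0 and 60.1 CPM, and at most 1.77% in the 6 other classes. Its downstream neighbour Msrb1, which encodes a methionine sulfoxide reductase, was at 1878 and 2137 CPM in neutrophil-like, 555 and 513 CPM in monocyte/macrophage-like and 45.8 and 47.3 CPM in T-like cells. In mature dendritic-like cells, however, Rpl3l was at 21.6 and 23.2 CPM beside 113 and 124 CPM of Msrb1. Whether reads of one were counted for the other was not tested.

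Several members are paralogues, relatives or copies of another member, and the part of a pair's UMIs that some of them held differed by class. Rpl22l1 and Rpl22 encode alternative forms of a large-subunit protein. Rpl22l1 held 20.8 and 21.7% of the UMIs of the pair in monocyte/macrophage-like cells (exact binomial 95% intervals 20.1 to 21.4% and 21.3 to 22.1%), 27.8 and 29.8% in T-like cells and 34.6 and 39.2% (30.7 to 38.6% and 37.3 to 41.1%) in mast-like cells. Rps27l held 15.9 and 17.2% of its pair with Rps27 in mature dendritic-like cells, 11.2 and 11.4% in cDC2-like, 3.56 and 4.70% in T-like and 2.03 and 1.48% in B-like cells. Other genes share 1.42% of the 3′ stretches of Rps27l but 100% of those of Rps27. Rpl36al, an intronless copy of Rpl36a, held 51.7 and 46.8% of its pair in monocyte/macrophage-like cells and 36.8 and 35.8% in T-like cells. For that pair reads are hard to assign, since 100% of the 3′ stretches of Rpl36a and 50.7% of those of Rpl36al occur in another gene.

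The remaining paralogues, Rpl3l set aside, were a small part of their pairs. Rps27rt, a retroposed copy of Rps27 with 86.3% of its 3′ stretches shared, held 2.04 to 3.22% of its pair in every class and library, close to a constant fraction. Rpl7l1, a relative of Rpl7, held 2.17 to 6.02% outside neutrophil-like cells and 13.3 and 10.8% there, on 14 and 35 UMIs. Rps4l, a pseudogene copy of Rps4x, held at most 3.77%. Rpl39l, known from the testis, had at most 20 UMIs in any of the 7 classes of a library, and Rpl10l, a testis form of Rpl10, at most 1. In placebo B-like cells 0 UMIs of the pair with Rpl39 came from Rpl39l, which allows a share of up to 0.119% by the exact interval.

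**Figure D5:**
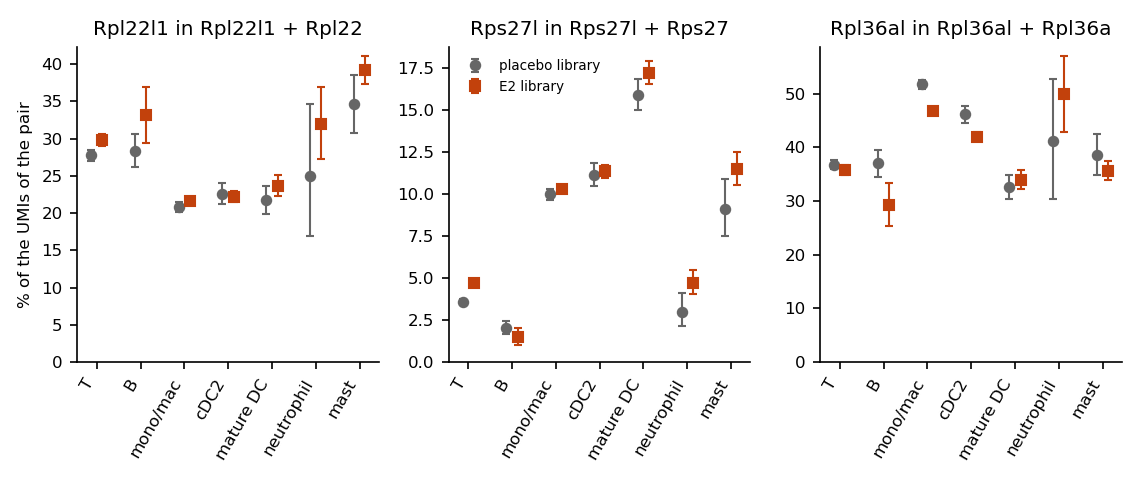
Share of a paralogue in the UMIs of its pair (y axis, %) in 7 classes; circles are the placebo library, squares the E2 library, and bars are exact binomial 95% intervals for counting error. Rpl22l1 is highest in mast-like cells (34.6 and 39.2%), Rps27l in mature dendritic-like cells (15.9 and 17.2%), and Rpl36al is at 51.7 and 46.8% in monocyte/macrophage-like cells.

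Other genes of the translation machinery were read from fixed lists of non-members. Ribosome components outside the naming rule include Fau and Rack1 (listed as Gnb2l1), a scaffold on the small subunit. Fau was at 4717 and 5853 CPM in cDC2-like cells, past 1.2-fold. Gnb2l1 was at 103 and 69.1 CPM in neutrophil-like cells, also past 1.2-fold. Of 25 translation factors, 6 were higher and 1 lower past 1.2-fold in T-like cells, against 9.45 and 19.8% of all features. Their median log2 ratio there was 0.11. In monocyte/macrophage-like cells 2 were higher and 5 lower, near the 7.15 and 19.5% of all features. Their median of -0.062 was also close to the -0.065 of all features tested. In cDC2-like cells 0 were higher and 4 lower, against 7.63 and 21.2%. Of 13 tested in neutrophil-like cells 2 were higher and 6 lower, against 19.5 and 38.6%. Pabpc1, the main protein bound to the poly(A) tail, whose message also carries a TOP tract, was at 979 and 708 CPM in monocyte/macrophage-like, 898 and 663 CPM in cDC2-like and 522 and 320 CPM in neutrophil-like cells. In T-like cells Eif3i, a subunit of the factor that recruits the small subunit, was at 167 and 222 CPM.

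Ribosome assembly genes were sparse, with 2 to 9 of 24 tested in a class. In T-like cells 4 of 9 were higher and 0 lower, among them Nop10 and Nhp2, proteins of the particles that modify ribosomal RNA, at 167 and 221 CPM and at 62.4 and 85.4 CPM. In cDC2-like cells 0 of 8 were higher and 4 lower, among them Nop58 at 107 and 81.2 CPM and Ubtf, a factor of ribosomal RNA transcription, at 90.4 and 67.6 CPM. In monocyte/macrophage-like cells 0 of 7 were higher and 1 lower. Mitochondrial ribosomal proteins, which serve the separate ribosome inside mitochondria, had positive log2 ratios in 34 of 34 tested in T-like cells, 13 of them past 1.2-fold, with a median of 0.19, and in 28 of 32 in monocyte/macrophage-like cells, 2 of them past 1.2-fold, with a median of 0.15. In cDC2-like cells 23 of 37 were positive, with a median of 0.044, and past 1.2-fold 0 were higher and 1 was lower. Of 5 tested in neutrophil-like cells 4 were higher and 1 lower past 1.2-fold. Past 1.2-fold, 9.45% of all features were higher and 19.8% lower in T-like cells. The shares were 7.15 and 19.5% in monocyte/macrophage-like, 7.63 and 21.2% in cDC2-like and 19.5 and 38.6% in neutrophil-like cells. These shares apply to the counts past 1.2-fold only, and the share of all features with a positive ratio was not computed.

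Across the 24 combinations of class and library, the level of 74 of the 80 abundant members had a Pearson correlation over 0.9 with the summed level of all members, with a median of 0.97. The lowest belonged to Rps27l (0.59), Rps9 (0.76) and Rps27 (0.76). Each member is itself a part of that sum. Of 593 non-members with a mean of at least 200 CPM, 24 (4.05%) were over 0.9. Among the 10 most alike were Eef1a1, Nsa2, Gnb2l1, Naca, Eef1b2, Eif3h, Eif3f, Npm1 and Eef1g, with correlations from 0.95 to 0.97. The points share 2 libraries and differ in depth and in how much of the total other abundant genes take, so this is a description of these libraries.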

How the data were processed

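The authors deposited raw counts: whole numbers of UMIs for each gene in each barcode, not normalized. The counts were made with Cell Ranger 3.1.0 on mm10, per the submitters' processing notes. The 37 mitochondrially encoded features held 0 UMIs. Barcodes with under 200 genes were removed (15 placebo, 26 E2), then the highest Scrublet scores at 0.8% per 1000 barcodes (97 and 266; scanpy 1.11.5), since the automatic threshold marked 0.086% of placebo barcodes. The factor of 2 between marker lists, and leaving barcodes with at least 5 Ctsk and Acp5 UMIs out of the neutrophil-like class, were chosen after seeing the data. The members and lists were chosen with earlier results of these data known.

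UMIs were summed by class and library. Named genes were paralogue members and their partners, the 6 highest and 6 lowest members by CPM, the 8 widest ranges across classes, the 3 highest and 3 lowest ratios in each class compared, the 10 most alike non-members and up to 3 genes of each other list; members past 1.2-fold could be named as well. Rps27a, Rpl37, Rps25, Rps18, Rpl32, Rps19, Rplp1, Rplp2 and Rpl12 were named after their values were seen. Intervals are exact and cover counting error only. They were run on simulated Poisson counts, the model they assume, so that run cannot assess variation between cells or mice. No p-value was computed, since each group has 1 library. Coordinates are GENCODE M21 (GRCm38), 1-based, and promoters RefSeq GRCm38.p6. Of the marker and list genes, 2 were found under older symbols through their gene identifier and 2 were not found. Python 3.11.15, numpy 2.4.6, scipy 1.17.1 and pandas 2.3.3 were used. Some genes, and a grouping of T-like cells, are not reported here.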

Additional observations from a re-analysis of the deposited data

How the results depend on the processing

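No paired analysis was possible because each group has 1 library. Of 99 recomputed values for the comparisons, 51 stayed within the counting interval or within 1.5 times the count, 47 moved and 1 reversed; the cause of the shifts was not tested. The log2 ratios of the pooled share, E2 over placebo, are 0.14, 0.14, 0.13 and 0.12 in T-like, monocyte/macrophage-like, cDC2-like and neutrophil-like cells. From the medians of the per-cell shares they were 0.073, 0.12, 0.14 and 0.23, and with cells thinned to 2000 UMIs 0.13, 0.16, 0.16 and 0.16. Among cells with 3000 to 10000 UMIs they were 0.13, 0.13, 0.28 and, reversed, -0.011. The reversed value is from pooled shares of 42 placebo and 287 E2 neutrophil-like cells. Their median per-cell shares were 1.86 and 2.14%, higher in the E2 library. Without the 20 most abundant other genes the log2 ratios were 0.15 in monocyte/macrophage-like and 0.25 in neutrophil-like cells. The stricter gate (6 UMIs, 3 markers, 5 times every other list) gave 0.13 in monocyte/macrophage-like and 0.15 in cDC2-like cells. With no doublet removal they were 0.15, 0.15 and 0.42 in T-like, monocyte/macrophage-like and neutrophil-like cells, and with the Ctsk and Acp5 barcodes left in, an alternative chosen after seeing the data, 0.78 in neutrophil-like cells.

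Counts past 1.2-fold changed most in neutrophil-like cells, whose members have few UMIs. Against 19 higher and 11 lower, there were 12 and 2 at a mean of at least 200 CPM, 61 and 1 with no doublet removal and 76 and 0 with the Ctsk and Acp5 barcodes left in. With CPM over the UMIs of other genes, 2 instead of 4 were lower in T-like cells and 13 instead of 8 higher in cDC2-like cells, and with the stricter gate 14 were higher in cDC2-like cells. Past 1.5-fold there were 0 higher and 0 lower in T-like, monocyte/macrophage-like and cDC2-like cells and 3 higher and 2 lower in neutrophil-like cells.

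The log2 ratio of the pooled share in T-like over monocyte/macrophage-like cells, 0.32 in both libraries, was 0.28 (placebo) and 0.27 (E2) without the 20 most abundant other genes, 0.29 and 0.31 with the stricter gate and 0.28 (E2) with thinned cells. For neutrophil-like over monocyte/macrophage-like cells, -2.65 (placebo) and -2.68 (E2), it was -2.55 and -2.56 with thinned cells, -2.39 and -2.29 without the 20 genes and -2.71 and -2.70 with the stricter gate. Of 24 recomputed ranges across classes of the 8 widest members, 21 changed by less than 20% and 3 moved, 1 for Rps4l and 2 for Rpl37rt.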
